A study of Mus musculus with 10 samples.

Results

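Injured kidneys of Pax8creERT2;Ihhfl/fl mice that had received tamoxifen were compared with injured kidneys of C57/BL6 wild-type mice that had received tamoxifen. The comparison holds 8 of the 32 bulk RNA libraries of the study, 4 per group, taken by the column names of the bulk table and called TG TAM and WT TAM. Both groups had unilateral renal artery ligation for 15 minutes (ischaemia-reperfusion injury, IRI), their kidneys were taken 2 weeks later, and the labels give an age of 8 weeks. Pax8creERT2 expresses a tamoxifen-activated Cre recombinase from the promoter of Pax8, a transcription factor of the kidney tubule, and Ihhfl/fl carries floxed alleles of Indian hedgehog. The TG TAM mice therefore differ from the WT TAM mice in strain, in the Cre transgene, in the floxed alleles and in the intended loss of Ihh at the same time, and these cannot be told apart in this comparison. The 3 further sets of 4 libraries served as reference levels: the uninjured contralateral kidneys of the TG TAM and the WT TAM arms, and injured kidneys of Pax8creERT2;Ihhfl/fl mice labelled as not given tamoxifen (TG VEH). Nothing in the labels ties the 4 numbered libraries of a group to separate animals, so p-values measure only the spread between these libraries, which may be technical.

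Hedgehog ligands are secreted proteins that bind the receptor Patched on neighbouring cells and so release Smoothened, which activates the Gli transcription factors. Gli1, Ptch1 and Hhip are themselves switched on by the pathway, and the Ptch1 and Hhip proteins bind the ligand and dampen the signal. In the kidney the ligand-producing cells are tubular epithelium and the responding cells are mainly interstitial fibroblasts and pericytes, which lay down collagen after injury.

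The TG TAM libraries held 22381785 to 26801055 counts and the WT TAM libraries 20756774 to 24786993. All 8 carried a kidney profile: 8 kidney genes took 1.55% to 2.70% of counts in TG TAM and 0.683% to 1.51% in WT TAM, against 2.78% to 3.06% in the contralateral kidneys of the same arms. Mitochondrially encoded genes took 2.43% to 3.29% of counts in TG TAM and 1.27% to 1.97% in WT TAM. TG TAM library 4 stood apart from its group in immunoglobulin genes, with 2.41% of counts against at most 0.268% in the other 3 TG TAM libraries and 1.23% to 4.80% in WT TAM. Expression is given as CPM, the count of a gene relative to the total of its library after TMM scaling, which does not correct for gene length, and log2 values are TG TAM minus WT TAM.

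Ihh transcripts were still present in every TG TAM library. Ihh, on chromosome 1 (GRCm38, 74945315 to 74951672, minus strand, 3 exons), stood at 4.36, 6.16, 5.47 and 4.42 CPM in TG TAM and at 7.75, 4.90, 8.19 and 10.1 CPM in WT TAM. The TG TAM mean was 5.10 CPM (SD 0.867, n = 4) and the WT TAM mean 7.72 CPM (SD 2.13, n = 4), 66.1% of the wild-type mean remaining, and the groups overlapped through WT TAM library 2. A two-sided exact permutation test gave p = 0.0857, where 4 against 4 libraries can give no less than 0.0286, and edgeR's quasi-likelihood test gave log2 -0.63 (SE 0.24, adjusted p = 0.0711). With CPM by library totals the mean was 55.1% of the wild-type mean (exact permutation p = 0.0571), and without WT TAM library 2 the edgeR adjusted p was 0.0404. The table counts reads over the whole gene, and the files do not say which exons are floxed, so this level does not measure how many cells recombined. Shh, the ligand of developing and urothelial epithelium, stood at 1.53, 1.22, 0.0911 and 0.510 CPM in TG TAM and 2.51, 1.75, 1.99 and 1.88 CPM in WT TAM (adjusted p = 0.115). Dhh, the ligand known from Schwann and endothelial cells, stood at 0.432, 0.453, 0.866 and 0.510 CPM and 1.48, 0.728, 0.663 and 0.460 CPM (adjusted p = 0.287). None of the 3 ligand genes passed the threshold with all 8 libraries and TMM scaling. Ihh passed with library totals (edgeR adjusted p = 0.0238) and with DESeq2 (adjusted p = 0.0443), at log2 -0.86 and -0.60.

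The genotypes differed in a large part of the transcriptome of the injured kidney. Of 16291 genes tested, 5524 (33.9%) had an adjusted p under 0.05, of which 2827 (17.4%) were higher and 2697 (16.6%) lower in TG TAM. The CPM of the groups did not overlap in 3246 genes that were higher (19.9%) and 2552 that were lower (15.7%). With a log2 change of at least 1 as a further condition, 761 genes (4.67%) were higher and 1241 (7.62%) lower. The direction of the split rests on the scaling: with library totals and no scaling factors, 1458 of 6242 genes called (23.4%, against 51.2%) were higher, and the median log2 over all genes moved from -0.04 to -0.27, so that rises and falls are relative to that median. Of the 41 gene lists described below, the medians of 2 changed sign with it, those of the cholesterol synthesis and sex chromosome lists. The number called also rested on single libraries, as the plot of counts with 1 library left out shows. Fewer genes passed without TG TAM library 1 (2322), 2 (1249) or 3 (2437) or WT TAM library 1 (1281) or 2 (1925), and more without TG TAM library 4 (7422). In every one of those 8 fits 1107 genes passed, 527 higher and 580 lower. A gene is said below to have risen or fallen where it passed with all 8 libraries. Its call is said to hold where it also passed in each of the 8 fits with 1 library left out. Otherwise the libraries without which it was lost are named, often pooled over the genes of a sentence.

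**Figure D1:**
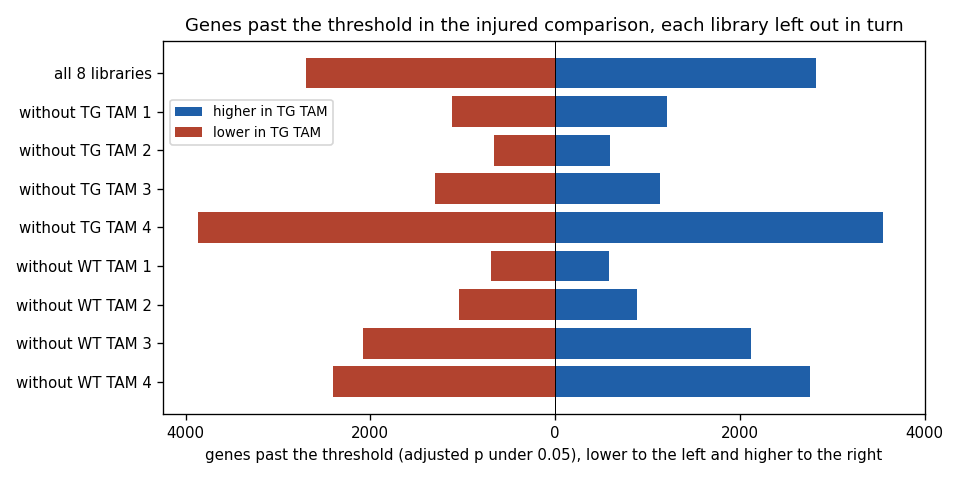
Number of genes with an adjusted p under 0.05 in injured TG TAM against WT TAM kidneys (horizontal axis), with all 8 libraries and with each library left out, higher genes to the right and lower genes to the left. The total falls from 5524 to between 1249 and 2437 without TG TAM 1, 2 or 3 or WT TAM 1 or 2, and rises to 7422 without TG TAM 4.

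Hedgehog receptors and target genes were lower in the TG TAM kidneys. Of 17 tested members of the receptor, transducer and target list, 10 fell and 1 rose, with a median log2 of -0.96 against -0.04 over all genes (33.9% of all genes passed in either direction). The count of fallen members was 4 to 10 with 1 library left out, fewest without WT TAM library 1. The fibroblast and mural cell list, which holds markers of the responding cells, moved with it: its summed level was 614 to 977 CPM in TG TAM and 1449 to 2303 CPM in WT TAM, with a median log2 of -1.44. Its part in the Hedgehog values was not tested, and whole-kidney RNA cannot tell fewer cells of a type from less RNA per cell, here and for every cell type below. Hhip, the decoy receptor, stood at 0.354, 0.136, 0.182 and 1.05 CPM in TG TAM and at 5.51, 2.32, 8.39 and 4.03 CPM in WT TAM (log2 -3.52, SE 0.67, adjusted p = 0.0136). Every TG TAM library lay below every WT TAM library. Gli1, the transcription factor read as a sign of pathway activity, stood at 2.08, 1.31, 0.501 and 2.35 CPM in TG TAM and 3.95, 3.04, 4.02 and 4.41 CPM in WT TAM (log2 -1.33, SE 0.41, adjusted p = 0.0405), again without overlap. Ptch1, the main receptor, differed by much less, with 62.3, 69.9, 70.9 and 67.0 CPM against 82.7, 78.2, 85.1 and 83.4 CPM (log2 -0.31, SE 0.07, adjusted p = 0.0219). The call of Hhip held, and those of Gli1 and Ptch1 were each lost without 1 or more of TG TAM libraries 1 and 2 and WT TAM libraries 1, 2, 3 and 4 (adjusted p up to 0.103).

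The ligand-binding co-receptors fell. Gas1 stood at 23.4, 26.6, 27.8 and 28.2 CPM in TG TAM and 68.2, 47.1, 38.7 and 48.1 CPM in WT TAM (log2 -0.96, SE 0.18, adjusted p = 0.0129). Boc stood at 15.5, 16.8, 12.1 and 16.6 and 36.2, 27.6, 27.6 and 24.8 CPM (log2 -0.96, SE 0.16, adjusted p = 0.00985). Cdon stood at 32.2, 24.3, 17.0 and 38.8 and 62.5, 54.7, 53.7 and 46.0 CPM (log2 -0.98, SE 0.24, adjusted p = 0.0234). In none of the 3 did the groups overlap. Scube2, which helps to release the lipid-bearing ligand from the producing cell, stood at 0.236, 0.996, 0.319 and 0.374 CPM against 2.47, 1.75, 5.38 and 1.07 CPM (log2 -2.50, SE 0.63, adjusted p = 0.0258). Gli2, the transcription factor that acts before Gli1, was the member that rose, with 1.57, 1.22, 1.82 and 1.8 CPM against 1.25, 0.728, 0.819 and 0.921 CPM (log2 0.76, SE 0.25, adjusted p = 0.0479), and its call was lost in each of the 8 fits that left out 1 library (adjusted p 0.0593 to 0.118). The calls of Gas1 and Boc held, and those of Cdon and Scube2 were each lost without 1 or more of TG TAM libraries 1, 2 and 3 and WT TAM libraries 1 and 2 (adjusted p up to 0.0697). In the injured TG VEH kidneys Gli1 stood at 4.11, 4.08, 1.34 and 6.66 CPM and Hhip at 2.96, 0.439, 0.395 and 1.38 CPM. These TG VEH levels of Gli1 reached the WT TAM range in 3 of the 4 libraries, and those of Hhip in 1 of the 4. Ptch1 in TG VEH stood at 54.5, 68.9, 74.1 and 65.35 CPM, below every WT TAM library. Scube2 in TG VEH stood at 1.31, 0.307, 0.474 and 0.516 CPM, and only library 1 reached the WT TAM range. The TG VEH group was not tested here. In the contralateral kidneys Gli1 was 0.290 to 0.830 CPM in the TG TAM arm and 0.387 to 1.09 CPM in the WT TAM arm.

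**Figure D2:**
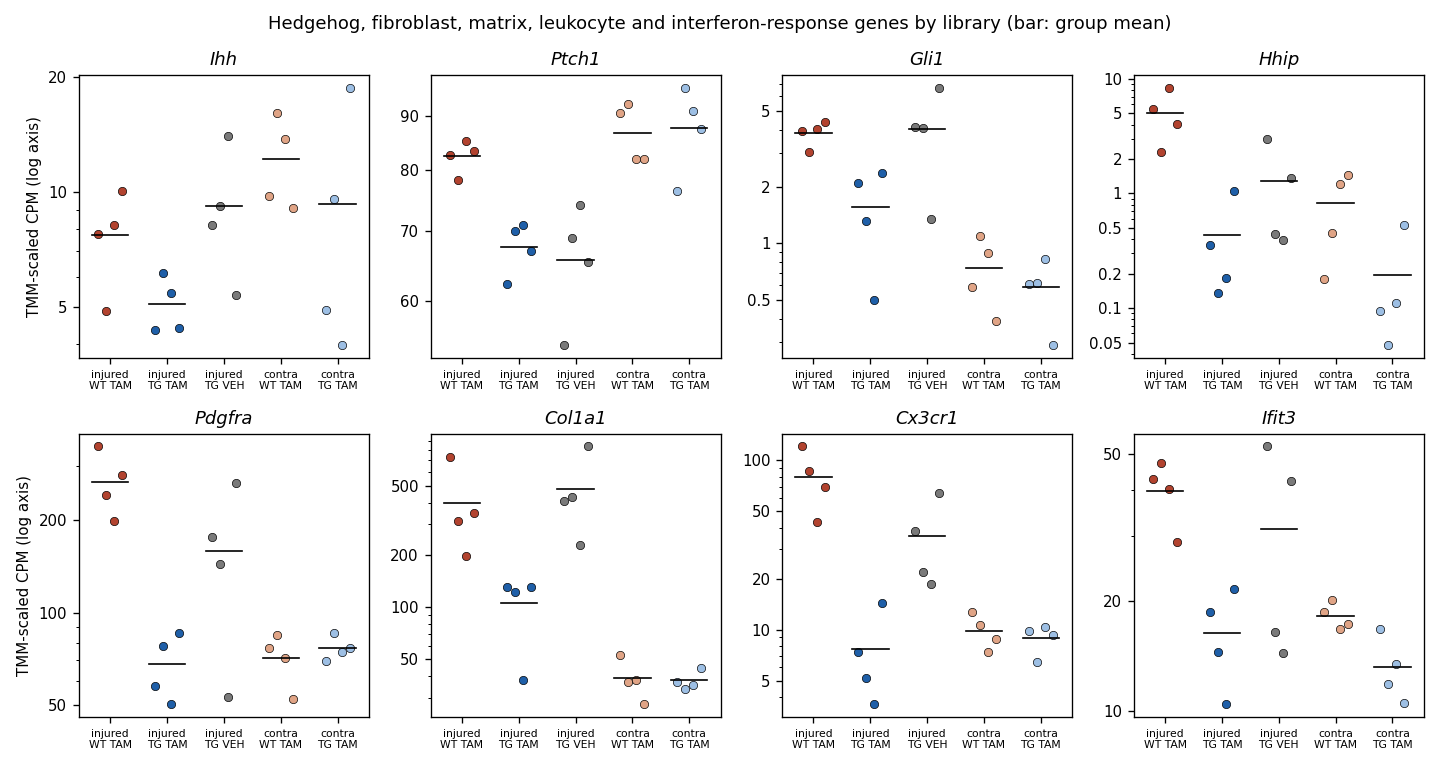
TMM-scaled CPM (log axis) of 8 genes in each library of the injured WT TAM, TG TAM and TG VEH kidneys and the contralateral (contra) WT TAM and TG TAM kidneys; points are libraries and bars group means. The injured TG TAM libraries lie below all injured WT TAM libraries in each panel except Ihh, where WT TAM library 2 (4.90 CPM) lies among them.

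Collagens, other matrix genes and fibroblast genes were lower in TG TAM, in lists set beside the 16.6% of all genes that fell. Of 14 tested fibrillar and interstitial collagens 11 fell and none rose (median log2 -1.4). Of 27 matrix glycoproteins and remodelling genes 20 fell and none rose (median -1.34). Of 22 fibroblast and mural cell genes 14 fell and none rose (median -1.44). Fewest genes passed without TG TAM library 2, which left 1 collagen, 6 matrix and 6 fibroblast genes, while the other 7 left-out libraries left 5 to 11, 8 to 23 and 7 to 15. Col1a1, the main chain of type I collagen, stood at 131, 123, 38.1 and 130.0 CPM in TG TAM and 732, 314, 196 and 348 CPM in WT TAM (log2 -1.95, SE 0.50, adjusted p = 0.027). The groups did not overlap, TG TAM library 3 was the lowest of all 8, and WT TAM library 1 the highest. Thbs2, a matricellular protein of fibroblasts, stood at 34.3, 31.4, 19.3 and 43.3 CPM against 132, 131, 71.8 and 77.0 CPM (log2 -1.71, SE 0.30, adjusted p = 0.0116). Mmp2, a gelatinase of the same cells, stood at 14.8, 16.9, 8.84 and 23.3 CPM against 67.4, 52.7, 33.6 and 46.3 CPM (log2 -1.68, SE 0.31, adjusted p = 0.0133). Pdgfra, a receptor that marks fibroblasts, stood at 57.6, 78.0, 50.5 and 86 CPM in TG TAM and 347, 240.4, 199 and 280.0 CPM in WT TAM (log2 -2.0, SE 0.23, adjusted p = 0.00479). Gucy1a1, a subunit of soluble guanylate cyclase in pericytes and interstitial cells, stood at 31.0, 33.0, 29.4 and 39.6 and 234, 158, 94.4 and 163 CPM (log2 -2.32, SE 0.26, adjusted p = 0.00468). Neither receptor nor cyclase overlapped between the groups, and the TG TAM values lay near those of the contralateral WT TAM kidneys (52.3 to 84.7 CPM for Pdgfra and 35.5 to 63.9 CPM for Gucy1a1). Acta2, the smooth-muscle actin used as the marker of myofibroblasts, did not pass, with 38.8, 44.0, 40.9 and 41.4 CPM against 89.5, 54.2, 37.7 and 56.8 CPM (log2 -0.56, SE 0.24, adjusted p = 0.0943). Acta2 passed without WT TAM library 3 (adjusted p = 0.0378), with library totals (0.0406) and with the spread taken from the 4 tamoxifen groups (0.0446). The calls of Thbs2, Mmp2, Pdgfra and Gucy1a1 held. That of Col1a1 was lost without TG TAM libraries 1 or 2 or WT TAM libraries 1 or 2 (adjusted p up to 0.0694).

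Basement membrane genes fell in part, and so did genes of the TGF-beta and Wnt pathways, where 16.6% of all genes fell and 17.4% rose. The rises in the basement membrane and TGF-beta lists were at shares below that of all genes. Of 17 basement membrane genes 8 fell and 1 rose (median log2 -0.45); Nid1, which links laminin to collagen IV, stood at 58.7, 75.8, 56.2 and 83.4 CPM against 254, 165, 115 and 174 CPM (log2 -1.4, SE 0.25, adjusted p = 0.0121). The member that rose was Lama1, a laminin chain of tubular basement membrane, with 40.6, 66.6, 57.4 and 53.4 CPM against 28.5, 22.2, 34.5 and 40.3 CPM (log2 0.77, SE 0.22, adjusted p = 0.0327). Of 20 TGF-beta genes 8 fell and 2 rose (median -0.24), with Bmp6 and Bmp7, ligands of the antagonistic BMP branch, as those that rose (log2 0.71 and 0.63). The ligand Tgfb1 stood at 16.7, 14.4, 12 and 23.7 CPM against 39.4, 39.7, 25.1 and 28.6 CPM (log2 -1.02, SE 0.24, adjusted p = 0.0222). Of 29 Wnt genes 13 fell and none rose (median -0.99). Fzd2, a Wnt receptor, stood at 4.68, 3.98, 2.10 and 5.24 CPM against 15.1, 13.1, 10.8 and 11.6 CPM (log2 -1.69, SE 0.27, adjusted p = 0.00977). Sfrp4, a secreted Wnt antagonist of fibroblasts, stood at 0.904, 1.63, 0.683 and 1.84 CPM against 12.7, 6.68, 6.28 and 3.65 CPM (log2 -2.56, SE 0.47, adjusted p = 0.0127). Both were lower in every TG TAM library than in any WT TAM library. With 1 library left out the count of fallen members was 5 to 7 for basement membrane, 4 to 8 for TGF-beta (lowest without TG TAM library 2) and 5 to 14 for Wnt (lowest without WT TAM library 1). The calls of Nid1, Fzd2 and Sfrp4 held, and those of Lama1, Tgfb1, Bmp6 and Bmp7 were each lost without 1 or more of TG TAM libraries 1, 2 and 3 and WT TAM libraries 1, 2 and 3 (adjusted p up to 0.109).

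Endothelial and podocyte genes moved down by smaller steps. Among all genes tested 16.6% fell, 17.4% rose and 33.9% passed in either direction. Of 18 endothelial genes 13 fell and none rose (median log2 -0.57; 4 to 10 with 1 library left out, fewest without WT TAM library 1). Of 12 podocyte genes 6 fell and none rose (median -0.54; 0 to 7 with 1 library left out, fewest without TG TAM libraries 1, 2 or 3 or WT TAM libraries 1 or 2). Eng, the endothelial co-receptor endoglin, stood at 38.9, 49.0, 51.0 and 40.9 CPM in TG TAM and 106, 79.9, 69.3 and 76.9 CPM in WT TAM (log2 -0.91, SE 0.16, adjusted p = 0.0119), with contralateral WT TAM kidneys at 69.5 to 82.4 CPM. The injured TG TAM values of Eng thus lay below those of both other sets, without overlap. Vwf, the clotting factor carrier of endothelium, stood at 19.6, 16.4, 12.3 and 21.5 CPM against 44.8, 34.3, 58.1 and 29.8 CPM (log2 -1.29, SE 0.25, adjusted p = 0.0138). Of 17 vascular growth factors and receptors 6 fell and 2 rose (median -0.22), the rises at a share below that of all genes. With 1 library left out 1 to 6 fell, fewest without TG TAM library 2, and 0 to 2 rose, none without TG TAM library 2 or WT TAM library 1. The ones that rose were Vegfa, the main endothelial growth factor, which tubular cells and podocytes make, with 181, 183, 212 and 141 CPM against 111, 93.3, 117 and 129 CPM (log2 0.65, SE 0.15, adjusted p = 0.0209), and Vegfb. Vegfb stood at 14.6, 16.1, 17.6 and 12.7 against 9.77, 8.24, 12.5 and 11.5 CPM (log2 0.51, SE 0.17, adjusted p = 0.0494). The calls of Eng and Vwf held, and those of Vegfa and Vegfb were each lost without 1 or more of TG TAM libraries 1, 2 and 3 and WT TAM libraries 1, 2 and 4 (adjusted p up to 0.115).

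**Figure D3:**
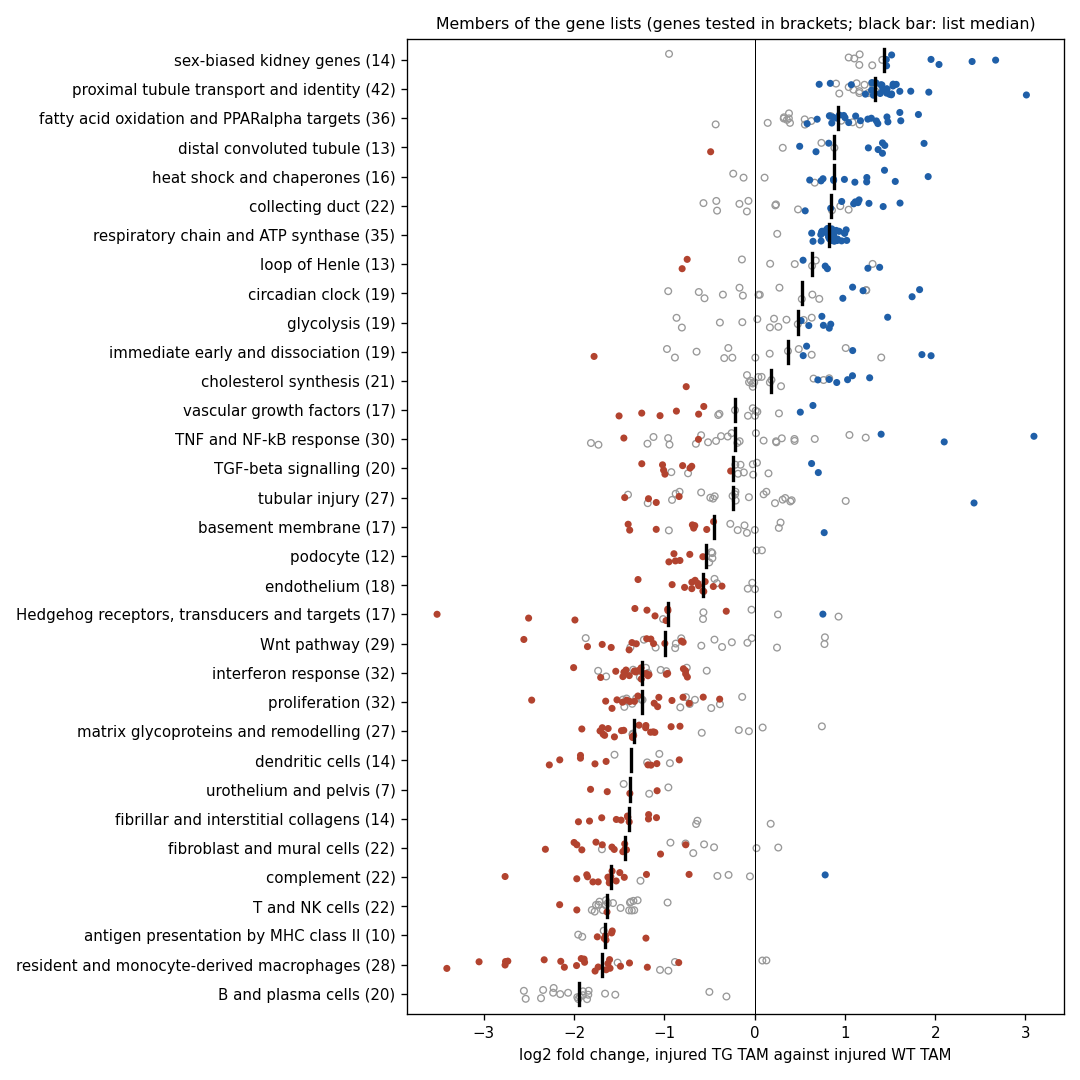
Fitted log2 fold change of injured TG TAM against WT TAM kidneys (horizontal axis) for every tested member of 33 gene lists (rows, sorted by median); filled points passed an adjusted p under 0.05 (blue higher, red lower), open points did not, and black bars are list medians. Leukocyte, matrix, fibroblast and Hedgehog target lists lie to the left of 0, and tubular transport, fatty acid oxidation and respiratory chain lists to the right.

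Macrophage genes fell in the TG TAM kidneys. Of 28 macrophage genes 22 fell and none rose (median log2 -1.69; 4 to 25 with 1 library left out, fewest without TG TAM library 2), where 16.6% of all genes fell. Cx3cr1, the fractalkine receptor of resident macrophages, stood at 7.43, 5.21, 3.64 and 14.4 CPM in TG TAM and 121, 87.0, 43.1 and 69.4 CPM in WT TAM (log2 -3.41, SE 0.49, adjusted p = 0.00783). Gpr34, a lysophospholipid receptor of macrophages, stood at 0.825, 0.770, 1.46 and 3.78 CPM against 15.6, 18.7, 10.3 and 11.9 CPM (log2 -3.05, SE 0.53, adjusted p = 0.0116). In both genes library 4 was the highest of the TG TAM group and still below all WT TAM libraries. C3ar1, the receptor for complement fragment C3a, stood at 8.84, 5.34, 3.46 and 15.3 CPM against 76.5, 64.6, 30.7 and 48.1 CPM (log2 -2.76, SE 0.49, adjusted p = 0.0119). Ccr2, the receptor that draws monocytes from blood, stood at 21.1, 16.6, 9.2 and 48.9 CPM against 206, 174, 87.4 and 157 CPM (log2 -2.73, SE 0.52, adjusted p = 0.0136). Contralateral WT TAM kidneys held 7.41 to 12.6 CPM of Cx3cr1 and 15.0 to 35.2 CPM of Ccr2, within the injured TG TAM range. Library 4 set the top of that range in both genes. The other TG TAM libraries held 3.64 to 7.43 CPM of Cx3cr1 and 9.2 to 21.1 CPM of Ccr2. The summed level of the macrophage list was 542 to 1722 CPM in TG TAM, 2050.5 to 3724 CPM in WT TAM and 1221 to 2837 CPM in TG VEH. The calls of Cx3cr1, Gpr34, C3ar1 and Ccr2 held.

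Dendritic cell genes also fell, whereas lymphocyte genes were low in 3 of the 4 TG TAM libraries and not in library 4. Of 14 dendritic cell genes 10 fell and none rose (median log2 -1.37; 1 to 14 with 1 library left out, fewest without TG TAM libraries 1 or 2 or WT TAM libraries 1 or 2). Xcr1, the chemokine receptor of cross-presenting dendritic cells, stood at 3.07, 2.76, 1.96 and 6.16 CPM against 17.0, 26.2, 11.0 and 12.3 CPM (log2 -2.27, SE 0.41, adjusted p = 0.0127), without overlap; the call held. Of 10 MHC class II genes 7 fell (median -1.66; 0 to 10 with 1 library left out, fewest without TG TAM libraries 1, 2 or 3 or WT TAM libraries 1 or 2). Of 22 T and NK cell genes 3 fell (median -1.63), where 16.6% of all genes fell. The 3 were Cxcr6, Thy1 and Klrd1, with log2 -2.16, -1.97 and -1.63, of which Thy1 is also a member of the fibroblast and mural cell list. With any library but TG TAM library 4 left out, 0 to 3 fell, none without TG TAM library 2 or WT TAM library 1. No member of 20 B and plasma cell genes passed (median -1.94). Cd3e, a chain of the T cell receptor complex, stood at 2.04, 3.44, 3.33 and 15.1 CPM in TG TAM and 13.9, 31.1, 15.0 and 10.3 CPM in WT TAM (log2 -1.57, SE 0.66, adjusted p = 0.0933), so that library 4 alone reached the wild-type range. Ighm, the immunoglobulin M heavy chain, showed the same pattern, with 15.5, 635, 299.6 and 5834 CPM against 2946, 12591, 7971 and 1575 CPM (log2 -1.90, SE 1.43, adjusted p = 0.306). Without TG TAM library 4, 21 T and NK cell genes, 18 B and plasma cell genes and 10 MHC class II genes fell, with Cd3e (adjusted p = 0.00755) and Ighm (0.0321) among those that passed. Cd3e also passed with DESeq2 (adjusted p = 0.0329). The calls of Cxcr6, Thy1 and Klrd1 were each lost without 1 or more of TG TAM libraries 1, 2 and 3 and WT TAM libraries 1 and 2 (adjusted p up to 0.0934).

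Complement and interferon-response genes, which both leukocytes and other kidney cells make, were lower in TG TAM, where 16.6% of all genes fell and 17.4% rose. Of 22 complement genes 17 fell and 1 rose (median log2 -1.59; fallen 4 to 18 with 1 library left out, fewest without TG TAM library 2 or WT TAM library 1). C3ar1, described with the macrophage genes, had the most negative value of the list (log2 -2.76). The member that rose was Cfb, a protease of the alternative pathway, with 280.1, 323, 484 and 253 CPM against 143, 160.5, 223 and 240.3 CPM (log2 0.78, SE 0.25, adjusted p = 0.0455). Of 32 interferon-response genes 22 fell and none rose (median -1.25; 4 to 29 with 1 library left out, fewest without TG TAM library 2 or WT TAM library 1), and all 32 had a negative log2 value. Ifit3, an antiviral protein with tetratricopeptide repeats, stood at 18.7, 14.5, 10.5 and 21.5 CPM against 42.8, 47.3, 40.3 and 28.8 CPM (log2 -1.32, SE 0.24, adjusted p = 0.0125). Oas1a, an oligoadenylate synthetase, stood at 4.2, 4.35, 1.96 and 6.67 CPM against 17.4, 20.1, 8.43 and 9.06 CPM (log2 -1.71, SE 0.42, adjusted p = 0.0248). Isg15, a ubiquitin-like protein, stood at 0.943, 0.589, 0.501 and 1.97 CPM against 3.76, 3.94, 1.91 and 1.96 CPM (log2 -1.54, SE 0.48, adjusted p = 0.0422). Ifit3 and Oas1a did not overlap between groups, and Isg15 did through TG TAM library 4. The call of Ifit3 held, and those of Cfb, Oas1a and Isg15 were each lost without 1 or more of TG TAM libraries 1, 2 and 3 and WT TAM libraries 1, 2 and 3 (adjusted p up to 0.111). The summed macrophage level, 542 to 1722 CPM in TG TAM and 2050.5 to 3724 CPM in WT TAM, moved with these lists, and its part in them was not tested.

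The promoters of these 3 genes are shown because many members of the interferon list share one element: the interferon-stimulated response element, searched as GAAANNGAAA on both strands in the 250 bases before the RefSeq gene start (GRCm38.p6). It was present in 13 of the 24 list genes found in the RefSeq promoter table and in 3.46% of the 27025 gene symbols in it. Of those 13 genes, 8 fell in TG TAM, Stat2, Isg15, Ifit1, Ifit3, Oas1a, Rsad2, Bst2 and Trim30a, against 22 of 32 in the whole list. A link between the element and the falls was not tested. Each sequence runs 5′ to 3′ on the gene's strand, with the matches in capitals, which overlap in Isg15 and Oas1a. The regions are chr4:156200819-156201068, minus strand, for Isg15, chr19:34583279-34583528, plus strand, for Ifit3 and chr5:120907526-120907775, minus strand, for Oas1a. A match describes the letters and does not show that a factor binds there.
Isg15: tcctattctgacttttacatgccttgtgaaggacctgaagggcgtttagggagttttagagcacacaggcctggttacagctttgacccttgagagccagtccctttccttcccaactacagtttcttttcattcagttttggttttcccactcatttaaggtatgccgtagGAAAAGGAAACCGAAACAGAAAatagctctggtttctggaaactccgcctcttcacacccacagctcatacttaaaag
Ifit3: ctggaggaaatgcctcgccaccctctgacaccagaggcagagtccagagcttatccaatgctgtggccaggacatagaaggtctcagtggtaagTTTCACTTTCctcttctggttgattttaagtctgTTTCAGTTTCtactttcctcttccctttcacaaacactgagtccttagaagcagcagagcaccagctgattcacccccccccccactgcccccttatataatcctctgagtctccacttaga
Oas1a: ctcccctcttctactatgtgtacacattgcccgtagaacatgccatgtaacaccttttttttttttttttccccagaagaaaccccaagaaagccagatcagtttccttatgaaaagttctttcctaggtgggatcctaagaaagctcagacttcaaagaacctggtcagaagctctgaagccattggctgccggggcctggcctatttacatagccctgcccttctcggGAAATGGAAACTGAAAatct

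Another pair of elements was searched in the same way, in the same windows. The Gli site, as GACCACCCA, was in none of the 12 matched genes of the Hedgehog receptor, transducer and target list and in 0.255% of all symbols. The cAMP response element, as TGACGTCA, was in 2 of the 15 matched immediate early genes, Dusp1 and Btg2, and in 1.77% of all symbols. A window without a match says only that these letters are not in it.

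Genes of DNA replication and mitosis were lower in TG TAM, where 16.6% of all genes fell. Of 32 proliferation genes 17 fell, none rose and all had negative log2 values (median -1.25; 1 to 28 with 1 library left out, fewest without TG TAM library 2). Mcm7, a subunit of the replicative helicase, stood at 20.2, 17.5, 18.5 and 21.7 CPM in TG TAM and 32.2, 37.8, 27.4 and 29.0 CPM in WT TAM (log2 -0.72, SE 0.12, adjusted p = 0.0104), without overlap; the call held. The mitotic kinases Cdk1 and Aurkb, with log2 -1.65 and -1.58, were past the threshold in 1 of those 8 fits each, the one without TG TAM library 4. In Aurkb TG TAM library 4 stood at 3.30 CPM against 0.683 to 1.06 CPM in the other 3, the same library that held more lymphocyte transcripts.

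The study's title names tumour necrosis factor, and its transcript and most of its response genes did not pass the threshold with all 8 libraries. Tnf stood at 1.49, 0.905, 0.820 and 2.62 CPM in TG TAM and 3.31, 5.0, 3.24 and 1.61 CPM in WT TAM (log2 -1.19, SE 0.45, adjusted p = 0.0723), with overlap between TG TAM library 4 and WT TAM library 4. Tnf passed without TG TAM library 4 (log2 -1.64, adjusted p = 0.0198) or without WT TAM library 4 (log2 -1.41, adjusted p = 0.0445). It also passed with DESeq2 (adjusted p = 0.0349) and with the spread from the 4 tamoxifen groups (0.0465). Of 30 TNF and NF-kB response genes 3 rose and 2 fell (median log2 -0.22), against 33.9% of all genes in either direction. Between 0 and 4 rose and 0 and 10 fell with 1 library left out, the 10 without TG TAM library 4 and none in either direction without TG TAM library 2, and with DESeq2 5 fell. Those that rose were Cxcl1 and Cxcl2, chemokines for neutrophils, with log2 3.09 and 2.10, and Ptgs2, the inducible cyclooxygenase, with 7.11, 7.92, 4.87 and 6.64 CPM against 3.15, 2.55, 2.85 and 1.27 CPM (log2 1.4, SE 0.29, adjusted p = 0.0168). Those that fell were Ccl7, a monocyte chemokine, and Tnfaip2, with log2 -1.45 and -0.62. S100a8 and S100a9, alarmins of neutrophils that injured epithelium can also make, rose from low levels. S100a8 stood at 3.07, 1.72, 2.10 and 2.04 CPM against 0.532, 0.529, 0.195 and 0.192 CPM (log2 2.57, SE 0.40, adjusted p = 0.00922). S100a9 stood at 2.59, 0.905, 1.69 and 1.43 CPM against 0, 0.265, 0.156 and 0.153 CPM (log2 3.43, SE 0.63, adjusted p = 0.013). Neither overlapped between groups, and in TG VEH S100a8 stood at 1.23, 7.55, 14.0 and 5.29 CPM. Of the 12 neutrophil genes 5 were abundant enough to test, and Camp and Elane were at 0 in the 8 libraries; besides the alarmins, Mmp9 fell with log2 -1.52. The calls of S100a8 and S100a9 held, and those of Ptgs2 and Tnfaip2 were lost only without TG TAM library 2 (adjusted p = 0.0541 and 0.0519). Those of Cxcl1, Cxcl2, Ccl7 and Mmp9 were each lost without 1 or more of TG TAM libraries 1, 2, 3 and 4 and WT TAM libraries 1, 2, 3 and 4 (adjusted p up to 0.118). Cxcl2 and Mmp9 passed in 1 of the 8 fits each.

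Tubular injury markers mostly did not pass the threshold with all 8 libraries. Havcr1, kidney injury molecule 1, stood at 21.2, 9.55, 3.78 and 13.2 CPM in TG TAM and 28.4, 9.79, 10.1 and 57.4 CPM in WT TAM (log2 -1.18, SE 0.69, adjusted p = 0.194). Lcn2, the neutrophil gelatinase-associated lipocalin of injured tubules, stood at 51.0, 29.9, 11.5 and 37.4 CPM against 40.2, 29.2, 45.6 and 31.6 CPM (log2 -0.21, SE 0.39, adjusted p = 0.676). The groups overlapped in both genes. Contralateral WT TAM kidneys held 1.59 to 7.85 CPM of Havcr1, which TG TAM library 3 did not exceed, and 0.955 to 3.61 CPM of Lcn2, which all 8 injured libraries exceeded. Of 27 injury genes 1 rose and 4 fell (median log2 -0.24), against 33.9% of all genes in either direction. Between 0 and 8 fell with 1 library left out, most without TG TAM library 4 and none without TG TAM library 2 or WT TAM library 1, while 9 fell with DESeq2 and 8 with library totals. Gdf15, a stress cytokine of tubular cells, was the member that rose, with 17.1, 43.4, 15.7 and 31.1 CPM against 5.85, 3.51, 4.02 and 6.14 CPM (log2 2.43, SE 0.38, adjusted p = 0.00929), without overlap. The members that fell were Vim, the mesenchymal filament vimentin, Mmp7, a secreted protease, Anxa3 and Sox4, with log2 -1.44, -1.18, -1.09 and -0.84. The call of Gdf15 held, and those of Vim, Mmp7, Anxa3 and Sox4 were each lost without 1 or more of TG TAM libraries 1 and 2 and WT TAM libraries 1, 2 and 3 (adjusted p up to 0.0898).

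Proximal tubule genes were higher in the TG TAM kidneys. Of 42 genes of proximal tubule transport and identity 28 rose and none fell, and all had positive log2 values (median 1.33; 3 to 37 with 1 library left out, fewest without TG TAM libraries 2 or 3 or WT TAM libraries 1 or 2), where 17.4% of all genes rose. Pck1, which makes phosphoenolpyruvate for gluconeogenesis, stood at 2257, 3216, 3279 and 1528 CPM in TG TAM and 195, 247, 444 and 368 CPM in WT TAM (log2 3.01, SE 0.36, adjusted p = 0.00527). Every TG TAM library lay above every WT TAM library, and contralateral WT TAM kidneys held 1169 to 3333 CPM. In TG VEH Pck1 stood at 988, 830, 1432 and 376 CPM, below every TG TAM library. All but TG VEH library 4 lay above every WT TAM library. Slc22a7, an organic anion transporter, stood at 72.2, 64.2, 83.3 and 90.0 CPM against 9.81, 13.9, 21 and 35.2 CPM (log2 1.93, SE 0.37, adjusted p = 0.0136). Acsm3, a medium-chain acyl-CoA synthetase, stood at 593, 574, 792 and 546 CPM against 142, 129, 201 and 334 CPM (log2 1.61, SE 0.31, adjusted p = 0.0139). Neither overlapped between the groups. Lrp2, the endocytic receptor megalin, did not pass, with 5109, 6902, 8987 and 3832 CPM against 1479, 1276, 3087 and 4092 CPM (log2 1.30, SE 0.45, adjusted p = 0.0545). The same was true of Slc34a1, the phosphate carrier, with 1889, 3010.2, 4364 and 1580.1 CPM against 623, 513, 1455 and 1622 CPM (log2 1.34, SE 0.48, adjusted p = 0.0601). In both of these WT TAM library 4 exceeded TG TAM library 4. Without TG TAM library 4 both passed (adjusted p = 0.0337 for Lrp2 and 0.0362 for Slc34a1), as they did with DESeq2 (0.00693 and 0.0102) and with the spread from the 4 tamoxifen groups (0.0068 and 0.00788). Lrp2 also passed without WT TAM library 4 (adjusted p = 0.0355). The calls of Pck1, Slc22a7 and Acsm3 held. The summed level of the list was 24726 to 58234 CPM in TG TAM and 7637 to 22491 CPM in WT TAM. It was 7469 to 27262 CPM in TG VEH and 62669 to 68158 CPM in contralateral WT TAM kidneys.

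Mitochondrial metabolism genes were higher in the same libraries. Of 36 genes of fatty acid oxidation and PPARalpha targets 21 rose and none fell (median log2 0.92; 1 to 28 with 1 library left out, fewest without TG TAM library 2 or WT TAM library 1). Of 35 respiratory chain and ATP synthase genes 34 rose and none fell (median 0.82; 0 to 34 with 1 library left out, fewest without TG TAM library 2 or WT TAM library 1). Of 19 glycolysis genes 7 rose (median 0.48), where 17.4% of all genes rose. With 1 library left out 0 to 10 glycolysis genes rose, fewest without TG TAM library 2 or WT TAM libraries 1 or 2. Ppara, the nuclear receptor that drives fatty acid oxidation, stood at 77.5, 98.6, 135 and 55.9 CPM in TG TAM and 19.4, 16.5, 42.1 and 40.3 CPM in WT TAM (log2 1.61, SE 0.39, adjusted p = 0.0239), without overlap. Cpt1a, which admits long-chain fatty acids to mitochondria, stood at 571, 484, 633 and 385 CPM against 192, 157, 289 and 263 CPM (log2 1.17, SE 0.23, adjusted p = 0.0147). Cyc1 and Ndufa4, subunits of the respiratory chain, rose by log2 1.02 and 1.01. The call of Cpt1a held, and those of Ppara, Cyc1 and Ndufa4 were each lost without 1 or more of TG TAM libraries 2 and 3 and WT TAM libraries 1 and 2 (adjusted p up to 0.0717). The share of mitochondrially encoded counts and the proximal tubule level moved the same way, and the macrophage and fibroblast levels the other way (fibroblast list 614 to 977 CPM in TG TAM and 1449 to 2303 CPM in WT TAM). Their part in these rises was not tested.

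Transport genes of the distal nephron were higher as well. In the loop of Henle 5 of 13 genes rose and 2 fell (median log2 0.64), against 33.9% of all genes in either direction. In the distal convoluted tubule 9 of 13 rose and 1 fell (median 0.88). In the collecting duct 10 of 22 rose and none fell (median 0.85). With 1 library left out the risen members numbered 4 to 7, 0 to 11 (lowest without TG TAM library 2 or WT TAM library 1) and 2 to 15 (lowest without TG TAM library 2). Ptger3, a prostaglandin E2 receptor of the thick ascending limb, stood at 150.4, 127, 143 and 125 CPM in TG TAM and 40.3, 39.3, 55.9 and 69.2 CPM in WT TAM (log2 1.38, SE 0.19, adjusted p = 0.00718). Kcnj10, a basolateral potassium channel, stood at 86.3, 75.9, 93.7 and 62.1 CPM against 23.6, 26.4, 39.7 and 41.0 CPM (log2 1.26, SE 0.21, adjusted p = 0.0111). Scnn1a, a subunit of the epithelial sodium channel, stood at 109, 79.5, 97.5 and 67.0 CPM against 34.6, 31.3, 45.5 and 44.7 CPM (log2 1.15, SE 0.18, adjusted p = 0.00974). None of these 3 overlapped between groups. Trpm6, the magnesium channel of the distal convoluted tubule, fell, with 31.7, 32.1, 32.5 and 29.0 CPM against 43.4, 43.1, 39.4 and 46.3 CPM (log2 -0.49, SE 0.08, adjusted p = 0.00938), against the direction of its list. In the loop of Henle Bsnd, a chloride channel subunit, and Cldn19, a claudin of the thick ascending limb, fell, with log2 -0.75 and -0.80. The calls of Ptger3, Kcnj10, Scnn1a and Trpm6 held, and those of Bsnd and Cldn19 were each lost without 1 or more of TG TAM libraries 1, 2, 3 and 4 and WT TAM libraries 1, 3 and 4 (adjusted p up to 0.0968).

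The largest rises are given with their levels in TG VEH, since several of them were also high in the injured TG VEH kidneys. Plk3, a stress-induced kinase, stood at 181, 278, 65.6 and 178 CPM in TG TAM and 8.13, 7.58, 5.93 and 6.91 CPM in WT TAM (log2 4.59, SE 0.42, adjusted p = 0.00275). In TG VEH it stood at 119, 76.0, 196 and 44.4 CPM, so both injured groups of the Pax8creERT2;Ihhfl/fl strain were high and the wild-type group low, like the contralateral WT TAM kidneys (5.55 to 14.5 CPM). Cyp27b1, the enzyme that makes active vitamin D in the proximal tubule, stood at 43.8, 34.8, 36.9 and 31.1 CPM in TG TAM, 1.44, 1.26, 3.08 and 2.07 CPM in WT TAM and 46.4, 40.9, 122 and 37.4 CPM in TG VEH (log2 4.19, SE 0.29, adjusted p = 0.00119 for TG TAM against WT TAM). Every WT TAM library lay below every TG TAM and TG VEH library. Nr4a3, an orphan nuclear receptor of the immediate early class, stood at 35.0, 32, 24.6 and 41.5 CPM in TG TAM, 5.70, 6.42, 3.51 and 4.84 CPM in WT TAM and 40.1, 25.9, 34.7 and 38.3 CPM in TG VEH (log2 2.67, SE 0.23, adjusted p = 0.00214). Pappa, a protease that frees insulin-like growth factors, stood at 96.5, 94.8, 83.2 and 75.6 CPM, 12.6, 9.2, 15.9 and 14.5 CPM and 30.1, 61.2, 101 and 32.5 CPM in that order (log2 2.71, SE 0.18, adjusted p = 0.00119). For Nr4a3 and Pappa too the WT TAM libraries lay below both other injured groups without overlap. Tmem252, a transmembrane protein, stood at 338, 338, 351 and 236 CPM in TG TAM and 10.4, 7.71, 20.6 and 22.6 CPM in WT TAM (log2 4.33, SE 0.39, adjusted p = 0.00263), with 129, 101, 193 and 47.7 CPM in TG VEH and 77.1 to 99.4 CPM in contralateral WT TAM kidneys.

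Another gene with a large rise was Mfsd2a, a lysolipid transporter, with 36.7, 73.3, 18.1 and 21.9 CPM against 3.95, 6.52, 3.79 and 5.56 CPM (log2 2.89, SE 0.47, adjusted p = 0.00985). In TG VEH Mfsd2a stood at 28.4, 25.9, 46.7 and 13.5 CPM, above every WT TAM library. Apoa4, an apolipoprotein, stood at 12.9, 9.82, 5.83 and 7.21 CPM in TG TAM, 0.950, 1.29, 1.87 and 1.23 CPM in WT TAM and 1.14, 2.90, 2.76 and 1.16 CPM in TG VEH (log2 2.71, SE 0.31, adjusted p = 0.00465). Ceacam2, a cell adhesion molecule, stood at 27.3, 20.3, 23.4 and 9.49 CPM, 1.44, 2.18, 7.73 and 1.65 CPM and 0.296, 2.81, 1.26 and 0.688 CPM (log2 2.60, SE 0.61, adjusted p = 0.0219). In these last 2 genes TG VEH was low like WT TAM, unlike Plk3 and Cyp27b1. Among the largest falls, Alx1, a homeobox factor, stood at 1.57, 1.68, 1.82 and 1.87 CPM against 12.6, 6.42, 13.0 and 15.7 CPM (log2 -2.81, SE 0.28, adjusted p = 0.00324), without overlap. Sptssb, a subunit of serine palmitoyltransferase, fell by log2 3.22, Phf11a by 2.79, Crisp1 by 2.64, Apol7c by 3.16, Cd180, a Toll-like receptor relative of B cells and macrophages, by 2.63, and Rnase6, an antimicrobial ribonuclease of monocytes, by 2.61. In TG VEH Sptssb stood at 0.0878 to 1.35 CPM, below the WT TAM range of 2.07 to 11.3 CPM, and Rnase6 also stayed below its WT TAM range. Apol7c, Phf11a, Crisp1 and Cd180 each reached the WT TAM range in 1 or more TG VEH libraries. Ugt1a8 and Ugt1a9, glucuronosyltransferases, rose by log2 3.31 and 2.64; the Ugt1a genes share exons, so the split of counts between them is uncertain. The calls of Plk3, Cyp27b1, Nr4a3, Pappa, Tmem252, Mfsd2a, Apoa4 and Alx1 held, and that of Phf11a was lost only without TG TAM library 2 (adjusted p = 0.0513). Those of Ceacam2, Sptssb, Crisp1, Apol7c, Cd180, Rnase6, Ugt1a8 and Ugt1a9 were each lost without 1 or more of TG TAM libraries 1, 2 and 3 and WT TAM libraries 1, 2 and 3 (adjusted p up to 0.112).

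**Figure D4:**
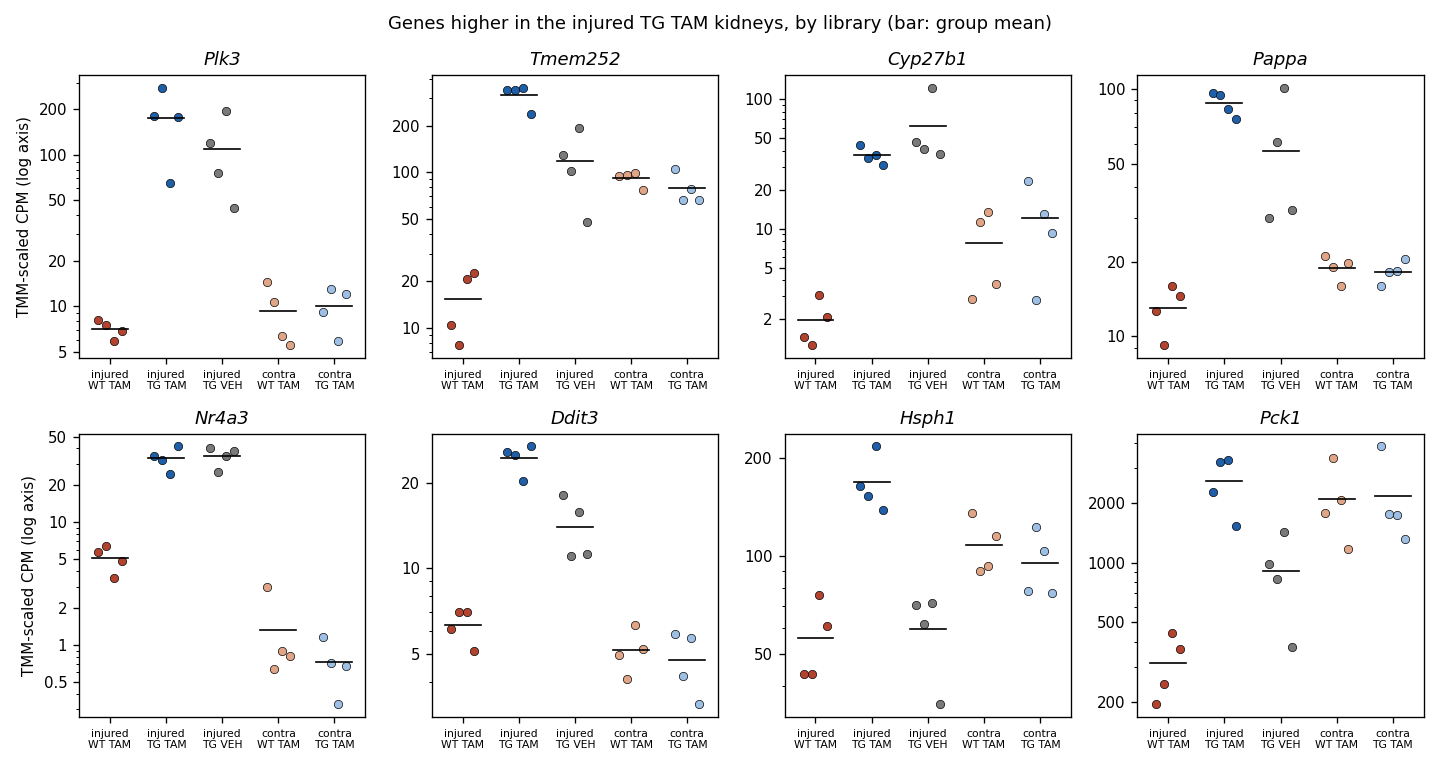
TMM-scaled CPM (log axis) of 8 genes that rose in injured TG TAM against WT TAM kidneys, by library, in 3 injured and 2 contralateral (contra) groups; bars are group means. Plk3, Cyp27b1, Pappa, Nr4a3 and Ddit3 are high in both injured groups of the Pax8creERT2;Ihhfl/fl strain, while Hsph1 in TG VEH (35.2 to 71.7 CPM) lies with WT TAM.

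Chaperone genes were higher in TG TAM, and immediate early genes passed at a share near that of all genes. Of 16 heat shock and chaperone genes 12 rose and none fell (median log2 0.87; 8 to 13 with 1 library left out, fewest without TG TAM library 2 or WT TAM library 1). Hsph1, a large chaperone of the Hsp110 family, stood at 164, 153, 217 and 138 CPM in TG TAM and 43.6, 43.6, 76.1 and 60.9 CPM in WT TAM (log2 1.56, SE 0.22, adjusted p = 0.0077). Hspa8, the constitutive Hsc70 chaperone, stood at 2112, 2365, 3081 and 1975 CPM against 766, 822, 934 and 932 CPM (log2 1.44, SE 0.18, adjusted p = 0.00539). Both were higher in every TG TAM library. Ddit3, the CHOP factor of the unfolded protein response, stood at 25.7, 25.1, 20.3 and 26.8 CPM against 6.12, 7.05, 7.02 and 5.14 CPM (log2 1.92, SE 0.14, adjusted p = 0.00119). Hspe1, the mitochondrial co-chaperonin, stood at 66.1, 76.2, 95.1 and 57.6 CPM against 32.6, 35.3, 42.5 and 47.7 CPM (log2 0.88, SE 0.18, adjusted p = 0.0173). Its partner Hspd1 rose by log2 1.24. Of 19 immediate early genes, which also respond to tissue handling, 5 rose and 1 fell (median 0.37), against 33.9% of all genes in either direction. Between 2 and 7 rose with 1 library left out, fewest without TG TAM library 2, and 0 to 1 fell. Ier3 stood at 67.2, 66.1, 56.4 and 58.1 CPM against 21.6, 14.6, 16.3 and 14.5 CPM (log2 1.85, SE 0.15, adjusted p = 0.00165). Dusp1, a phosphatase of MAP kinases, stood at 204, 268, 139.9 and 189 CPM against 73.4, 46.5, 39.0 and 42.9 CPM (log2 1.95, SE 0.26, adjusted p = 0.00693). The others that rose were Fosl2, Myc and Jund, with log2 1.09, 0.58 and 0.54, and Egr3 fell with -1.78. The calls of Hsph1, Hspa8, Ddit3, Ier3 and Dusp1 held, and that of Jund was lost only without TG TAM library 2 (adjusted p = 0.0612). Those of Hspe1, Hspd1, Fosl2, Myc and Egr3 were each lost without 1 or more of TG TAM libraries 1, 2, 3 and 4 and WT TAM libraries 1, 2, 3 and 4 (adjusted p up to 0.106). Myc passed in 1 of the 8 fits.

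The Hspe1 promoter is shown because it holds the heat shock element, searched as GAANNTTCNNGAA on both strands in the 250 bases before the gene start. The element was present in 0.514% of the 27025 symbols, and in 2 of the 13 chaperone genes found in the table, Hspe1 and Hspd1. The region is chr1:55087898-55088147, plus strand (RefSeq, GRCm38.p6), with 2 overlapping matches in capitals. As above, the match is a description of the letters.
Hspe1: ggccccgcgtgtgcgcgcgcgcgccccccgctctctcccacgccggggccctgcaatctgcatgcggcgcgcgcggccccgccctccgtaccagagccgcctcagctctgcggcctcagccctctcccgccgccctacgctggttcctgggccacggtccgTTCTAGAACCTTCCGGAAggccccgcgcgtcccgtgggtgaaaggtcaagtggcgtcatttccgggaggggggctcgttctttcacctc

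A part of the clock genes was higher in TG TAM. Of 19 clock genes 5 rose and none fell (median log2 0.52), where 17.4% of all genes rose and 33.9% passed in either direction. With 1 library left out 3 to 8 rose, fewest without TG TAM library 2. Those that rose were Per1, Rora, Bhlhe40, Nfil3 and Hlf. Per1, a repressor in the core loop that glucocorticoids and stress also induce, stood at 145, 162, 103 and 147 CPM in TG TAM and 33.0, 57.3, 52.6 and 20.4 CPM in WT TAM (log2 1.74, SE 0.32, adjusted p = 0.0126). The contralateral kidneys stood at 34.1, 24.3, 21.6 and 20.1 CPM in the TG TAM arm and 19.1, 47.7, 41.9 and 11.0 CPM in the WT TAM arm, below every injured TG TAM library. Rora rose by log2 1.09, Bhlhe40 by 0.98, Nfil3 by 1.83 and Hlf by 1.2, while Arntl, the activator of the loop, did not pass (log2 -0.62). The calls of Per1, Rora and Bhlhe40 held, and that of Nfil3 was lost only without TG TAM library 2 (adjusted p = 0.0514). That of Hlf was lost without TG TAM libraries 1, 2 or 3 or WT TAM libraries 1, 2 or 4 (adjusted p up to 0.119). The time of day of harvest is not in the labels, and its part was not tested.

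The injured TG TAM kidneys lay nearer to the contralateral kidneys than the injured WT TAM kidneys did in most of the genes called. For 2356 of the 2827 risen genes (83.3%) and 2373 of the 2697 fallen genes (88.0%) the median level in TG TAM was nearer to contralateral WT TAM than the median in WT TAM was. A smaller set went past the contralateral level: 340 risen genes (12%) had all 4 TG TAM libraries above all injured WT TAM and all 8 tamoxifen contralateral libraries, Plk3, Cyp27b1, Nr4a3, Ddit3, Per1 and Ier3 among them. Likewise 182 fallen genes (6.75%) lay below all of those libraries, Eng and Vegfd among them. Of these sets, 109 of the 340 risen and 65 of the 182 fallen genes also lay beyond every injured TG VEH library. Plk3, Cyp27b1 and Nr4a3 were not among the 109. Vegfd, a lymphatic growth factor of fibroblasts, stood at 3.58, 5.70, 4.56 and 4.02 CPM in injured TG TAM, 15.4, 12, 6.48 and 7.79 CPM in injured WT TAM and 6.45 to 8.50 CPM in contralateral WT TAM kidneys (log2 -1.25). The call of Vegfd was lost without TG TAM libraries 1, 2 or 3 or WT TAM libraries 1 or 2 (adjusted p up to 0.0604). These counts describe position only, since the same injured libraries chose the genes.

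In the contralateral kidneys no gene passed the threshold. Of 15324 genes tested there, 0 (0%) had an adjusted p under 0.05 with edgeR, 881 had an unadjusted p under 0.05, and DESeq2 called 14, all lower in the TG TAM arm; the lowest edgeR adjusted p was 0.0575. A p that misses the threshold does not show that the genotypes were alike there. Cx3cr1 stood at 9.84, 6.45, 10.3 and 9.28 CPM in the contralateral TG TAM and 12.6, 10.7, 7.41 and 8.77 CPM in the contralateral WT TAM kidneys, Pck1 at 3827, 1753, 1731 and 1318 and 1777, 3333, 2057 and 1169 CPM, and Ihh at 4.92, 9.62, 3.98 and 18.8 and 9.75, 16.1, 13.7 and 9.12 CPM. All 3 overlapped between the genotypes. The difference between the injured and the contralateral genotype effect was tested as 1 contrast over 16 libraries, which include the 8 injured ones of the comparison above, and there 3476 of 16612 genes passed (20.9%), 2052 (12.4%) with a more positive and 1424 (8.57%) with a more negative effect in the injured kidney. On the log2 scale its largest values among the genes reported here were 4.58 (SE 0.40, adjusted p = 5.97e-05) for Tmem252 and 4.50 (SE 0.56, adjusted p = 0.000666) for Plk3 among the positive ones, with 3.58 for Cyp27b1, 3.56 for Nr4a3 and 3.05 for Mfsd2a next. Among the negative ones they were -3.25 (SE 0.66, adjusted p = 0.00752) for Gpr34, -3.24 (SE 0.53, adjusted p = 0.00295) for Cx3cr1 and -2.97 (SE 0.89, adjusted p = 0.0321) for Nlrp10, an inflammasome-family protein, and then -2.95 for Dchs2, -2.83 for Phf11a and -2.81 for Gpr183. In the lists, 19 proximal tubule genes, 32 respiratory chain genes and 11 chaperone genes passed with a more positive effect, and 14 matrix, 10 fibroblast and 7 macrophage genes with a more negative one. With 1 library left out, the contrast called 1833 to 5795 genes, lowest without injured WT TAM library 1 (1833) and TG TAM library 2 (1847) and highest without TG TAM library 4 (5795).

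The remaining lists were measured as checks of sex, strain and other tissues. Their counts stand beside 17.4% of all genes that rose, 16.6% that fell and 33.9% called in either direction. Ddx3y, a Y-linked helicase, stood at 88.5, 110.5, 111 and 101 CPM in TG TAM and 69.5, 89.7, 73.3 and 72.7 CPM in WT TAM (log2 0.40, SE 0.11, adjusted p = 0.0318), and Y-linked Uty rose with it (log2 0.31); with library totals neither passed. Of 14 sex-biased kidney genes 7 rose and none fell (median log2 1.44; 2 to 9 with 1 library left out, fewest without TG TAM library 2 or WT TAM libraries 1 or 2). Cyp7b1, an androgen-dependent hydroxylase of the male proximal tubule, stood at 178, 162, 140.4 and 138 CPM against 27.6, 31.6, 47.5 and 40.3 CPM (log2 2.04, SE 0.18, adjusted p = 0.00252); the call held. Of 11 genes known to vary between laboratory strains 3 rose and 2 fell in the injured kidneys. None passed in the contralateral kidneys, where no gene outside the list passed either. Leaving out 1 library gave 0 to 5 that rose and 0 to 4 that fell, the highest counts without TG TAM library 4. Those called with all 8 libraries were Wdfy1, Cyp4a12a and Ide, with log2 0.86, 2.41 and 0.45, and Fam89b and Trim12a, with -0.48 and -0.96. Of 21 cholesterol synthesis genes 6 rose and 1 fell, a share near the 33.9% of all genes called in either direction. The median of the list was 0.19, and -0.04 with library totals. With 1 library left out 1 to 7 rose, fewest without TG TAM libraries 2 or 3 or WT TAM library 1. Cyp51, the lanosterol demethylase, stood at 154, 198, 205 and 115 CPM against 58.0, 54.8, 72.5 and 87.3 CPM (log2 1.27, SE 0.22, adjusted p = 0.0118). Of 7 urothelial genes 4 fell, Krt5, Upk1b, Upk2 and Trp63 (median -1.38; log2 -1.82, -1.63, -1.38 and -1.08), with summed levels of 9.29 to 31.3 CPM in TG TAM and 32 to 84.3 CPM in WT TAM, and 0 to 6 fell with 1 library left out. No adipocyte, adrenal or erythroid gene passed, and of 5 heart muscle genes Tnnt2 rose and Myh6 fell at levels of 2.08 to 4.40 and 0.228 to 0.668 CPM in TG TAM. The calls of Cyp51 and Uty held, and those of Ddx3y, Wdfy1, Cyp4a12a, Ide, Fam89b, Trim12a, Krt5, Upk1b, Upk2, Trp63, Tnnt2 and Myh6 were each lost without 1 or more of TG TAM libraries 1, 2, 3 and 4 and WT TAM libraries 1, 2, 3 and 4 (adjusted p up to 0.125).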

How the data were processed

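Bulk RNA sequencing of mouse kidney was used, as a table of expected counts per transcript that the authors deposited, made with Salmon 1.4 per the submitters' processing notes, which also list STAR, Cell Ranger, GRCm38 and mm10. The labels' protocols give 1 text, on tissue digestion, sorting and 10x libraries plus standard Illumina RNA libraries, for all samples. The single-cell tables were not used here. Of positive values 83.2% were not whole.

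Transcripts were summed to 33644 genes with GENCODE M21 (GRCm38), 630 transcripts with 0.213% of counts having no match, and rounded. Each comparison was fitted to its own libraries with edgeR 4.0.16 in R 4.3.3 (filterByExpr, TMM, quasi-likelihood F test, Benjamini-Hochberg adjustment over all genes tested, threshold 0.05), after a check on simulated counts; the standard error is the log2 fold change over the square root of F. CPM carry TMM factors over the 24 libraries of the 6 injury-arm groups. DESeq2 1.42.0, RLE factors, no filter, other sets of libraries for the spread, a replicate block and each library left out were alternatives. The spread from 6 groups, the spread without heart-profile libraries and library totals were added after seeing the data.

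Each bulk group is 1 sample record with 4 numbered columns. Groups and lists were chosen with earlier results of these data known. Genes were named by rule: a fixed set, the 12 largest called changes per direction in the injured kidney and 6 in the difference contrast (mean of at least 5 CPM), and from each list the 2 to 4 largest or those completing a count of 5 or fewer. Gas1, Boc, Cdon, Cd3e, Ighm, Ifit3, Isg15, Lrp2, Slc34a1, Mcm7, Cpt1a, Scnn1a, Hspe1, Arntl, Stat2, Ifit1, Rsad2, Bst2 and Trim30a were added after their values were seen. A few genes that the rule names are not reported here. Promoter sequences are RefSeq's (GRCm38.p6), and their orientation was checked against transcripts.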

Additional observations from a re-analysis of the deposited data

Results flagged for a closer look

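Among 358 sets of 4 libraries screened (named genes, list sums and shares of counts in the 2 injured groups), 25 held a library whose gap to its neighbour passed Dixon's 95% critical value, where chance alone gives about 1 in 20. The explanations of these values were not weighed.

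TG TAM library 4 stood above the other 3 libraries of its group in lymphocyte, macrophage and proliferation genes. It held 15.1 CPM of Cd3e against 2.04 to 3.44, 2.45 CPM of Klrd1, a receptor of NK cells, against 0.683 to 0.943, and 5834 CPM of Ighm against 15.5 to 635. Cd180 stood at 14.2 CPM against 2.46 to 4.24, Rnase6 at 5.38 against 0.456 to 1.09, Apol7c at 2.01 against 0.136 to 0.273, Aurkb at 3.30 against 0.683 to 1.06 and Egr3 at 0.953 against 0.319 to 0.393. The summed T and NK cell list stood at 184 CPM against 31.4 to 49.4, the B and plasma cell list at 13271 CPM against 888 to 1866, and immunoglobulin genes at 2.41% of counts. The same library was the lowest of its group in Tmem252, with 236 CPM against 338 to 351, and in the summed Wnt list, with 571 CPM against 636 to 642.

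WT TAM library 2 stood above its group in Aurkb (7.25 CPM against 3.42 to 3.98), Apol7c (12.6 against 3.57 to 4.21) and Myh6 (2.91 against 0.921 to 1.13). Its summed T and NK cell list was 394 CPM against 133 to 174, its proliferation list 995 CPM against 584 to 641 and its erythroid list 2316 CPM against 322 to 588. Further single libraries were TG TAM library 3 for Col1a1 (38.1 CPM, lowest), TG TAM library 2 for Arntl (20.1 CPM against 10.1 to 11.3), TG TAM library 1 for Tnnt2 (4.40 CPM against 2.08 to 2.18), WT TAM library 3 for Ceacam2 (7.73 CPM against 1.44 to 2.18), and WT TAM library 4 for Ugt1a8 (8.48 CPM against 0.507 to 1.86) and the summed strain list (556 CPM against 398 to 424).

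The genotype effect differed between the injured and the contralateral kidney, by a test of the difference itself, in 3476 genes. The named ones, as log2 differences, were Tmem252 (4.58), Plk3 (4.50), Cyp27b1 (3.58), Nr4a3 (3.56) and Mfsd2a (3.05) above 0, and Gpr34 (-3.25), Cx3cr1 (-3.24), Nlrp10 (-2.97), Dchs2 (-2.95), Phf11a (-2.83) and Gpr183 (-2.81) below 0. In the contralateral kidney alone the effect of Cyp27b1 was 0.63, not past the threshold.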

How the results depend on the processing

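Under scaling, test and filter alternatives the injured count stayed within 1.5 times of 5524: 5701 with RLE factors, 4529 with no low-count filter, 7596 with DESeq2, 6242 with library totals, and 6002, 7962, 6700 or 6797 when 3 injured, 4 tamoxifen, 6 injury-arm or 8 bulk groups without heart-profile libraries set the spread. It was 2082 with all 8 bulk groups, 2002 with a log2 fold change of at least 1 as well, and 1249 to 7422 with 1 library left out. The contralateral count was 1 with no low-count filter, 14 with DESeq2 and 0 to 3 with 1 library left out, the 3 without WT TAM library 1. The difference contrast called 3451 with RLE factors, 2769 with no filter, 4687 with DESeq2 and 1833 to 5795 with 1 library left out. The cause of these shifts was not tested, apart from the fewer libraries or stricter condition themselves.

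Column numbers did not pair the genotypes: injured TG TAM and WT TAM libraries of the same number correlated, after removal of group means, at 0.18, -0.24, 0.30 and -0.49 for numbers 1 to 4, and only number 1 correlated best with its own. Between the injured and contralateral kidneys, which bears on the difference contrast, the WT TAM libraries correlated at -0.025, 0.19, 0.19 and 0.19, numbers 2 to 4 each best with their own, and the TG TAM libraries at 0.16, 0.025, -0.027 and 0.06, only number 1 best with its own. Not every pair exceeded 0.1, so the numbers were not taken as pairs in either arm, though the values hint at a link in WT TAM. A replicate block gave 977 genes in the injured comparison (368 higher), 0 in the contralateral one and 3074 in the difference contrast, where the number within each arm was the block.

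Of 122 named genes called in the injured kidney, 50 passed in all 8 fits with 1 library left out and 27 under every alternative, and none reversed. Lcn2, not called, ranged from -0.50 to 0.067 with 1 library left out. Depth limits genes near 1 CPM, such as Shh, Gli2 and S100a9, where a library holds few counts.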

Other observations

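Values of 3 genes linked libraries of the wild-type arm by their column number, a pattern noticed in the data and chosen after these values were seen. Injured WT TAM library 3 held 0.780 CPM of Ugt1a9 against 4.83 to 27.7 in the other 3, and contralateral WT TAM library 3 held 0.375 CPM against 68.2 to 92.1. Ugt1a8 stood at 0.507 and 0.141 CPM in the same libraries, against 1.85 to 8.48 and 17.0 to 28.5 in their groups. Wdfy1, a gene known to vary between laboratory strains, stood at 43.0 CPM in the injured and 54.3 CPM in the contralateral library 3, against 55.6 to 95.0 and 97.6 to 132 CPM. The 8 TG TAM libraries, injured and contralateral, held 43.0 CPM or more of Ugt1a9. Whether libraries with the same number come from the same animal is not in the labels.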
